A study of Mus musculus with 19 samples.

Results

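Histone cluster genes are the genes for replication-dependent histones, which lie in tandem groups named Hist1, Hist2, Hist3 and Hist4 in mouse. All rows of the RNA-seq count table whose symbol begins with Hist1h, Hist2h, Hist3h or Hist4h were taken when they held at least 10 counts summed over the 15 libraries. That rule gave 59 genes of 24062 in the table, out of 68 rows with such a symbol. By symbol, 6 of the 59 members belong to the linker histone H1, 14 to H2A, 17 to H2B, 10 to H3 and 12 to H4. Among the H2B members, Hist3h2bb-ps is listed in RefSeq as a transcribed pseudogene. By cluster, 49 belong to Hist1 on chromosome 13, 6 to Hist2 on chromosome 3, 3 to Hist3 on chromosome 11 and 1, Hist4h4, to chromosome 6 (RefSeq, GRCm38.p6). The other 9 rows held fewer than 10 counts. Hist2h3c1 held 1 count, and Hist1h2ao, Hist1h2ap, Hist1h2bq, Hist1h2br, Hist1h4m, Hist2h2aa1, Hist2h2aa2 and Hist2h3c2 held 0. Some of these genes have near-identical copies in the same cluster. Reads that did not map to 1 place were tallied apart and given to no gene. Counts of such copies are therefore uncertain and may be too low, and 0 counts need not mean that a gene was silent.

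Replication-dependent histone genes are transcribed in S phase, when a cell needs new nucleosomes to wrap freshly copied DNA. H2A, H2B, H3 and H4 form the core of the nucleosome and H1 binds the linker DNA beside it. Most of their mRNAs have no introns and end in a conserved stem-loop in place of a poly(A) tail, and the stem-loop binding protein Slbp holds and processes that end. The factor Npat drives their transcription at a dedicated nuclear body. Some cluster genes, among them Hist1h2bc, Hist1h1c and Hist2h2be, also make polyadenylated RNA that cells keep outside S phase or after they stop dividing. Replacement histones such as H2afz and H3f3b lie outside the clusters and are made throughout the cycle.

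Some promoter elements differ between the histone types, and 7 examples from genes named in later results are shown. They include H2A genes that share a head-to-head promoter with an H2B gene, H1 and H4 genes with their own elements, and Hist3h2ba, whose level changed across the embryonic series. Each is the RefSeq sequence of GRCm38.p6 just before the annotated start, 5′ to 3′ on the strand of the gene. Capitals mark the octamer ATTTGCAT, the CCAAT box, the TATA box TATAAA, the H1 box AAACACA and the H4 element GGTCC, each on either strand. The intervals are chr3:96220881-96221071 on the minus strand for Hist2h2ac, chr13:23683960-23684198 on the minus strand for Hist1h2ac and chr13:23571221-23571399 on the minus strand for Hist1h2ae. They are chr13:21780626-21780875 on the minus strand for Hist1h1b, chr13:23738557-23738806 on the plus strand for Hist1h1c, chr13:23581318-23581567 on the plus strand for Hist1h4d and chr11:58948661-58948910 on the plus strand for Hist3h2ba. The first 3 run from the start of the named gene to the start of its neighbour, which is Hist2h2be, Hist1h2bc and Hist1h2bg in that order.
Hist2h2ac: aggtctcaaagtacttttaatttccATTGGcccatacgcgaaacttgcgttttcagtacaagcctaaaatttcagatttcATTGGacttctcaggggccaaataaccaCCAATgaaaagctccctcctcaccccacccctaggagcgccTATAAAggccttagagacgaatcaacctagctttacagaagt
Hist1h2ac: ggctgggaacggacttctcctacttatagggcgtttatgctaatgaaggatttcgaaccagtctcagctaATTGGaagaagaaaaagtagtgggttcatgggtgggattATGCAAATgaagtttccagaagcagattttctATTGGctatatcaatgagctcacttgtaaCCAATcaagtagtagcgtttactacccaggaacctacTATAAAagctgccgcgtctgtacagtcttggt
Hist1h2ae: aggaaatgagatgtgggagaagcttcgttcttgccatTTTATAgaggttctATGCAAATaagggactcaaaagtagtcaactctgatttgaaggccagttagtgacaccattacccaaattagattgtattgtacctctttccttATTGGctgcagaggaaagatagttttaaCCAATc
Hist1h1b: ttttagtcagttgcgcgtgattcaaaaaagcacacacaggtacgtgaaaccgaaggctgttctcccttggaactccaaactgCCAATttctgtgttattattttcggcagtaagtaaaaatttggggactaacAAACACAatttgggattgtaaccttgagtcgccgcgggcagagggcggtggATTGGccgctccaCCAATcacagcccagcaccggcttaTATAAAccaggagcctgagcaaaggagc
Hist1h1c: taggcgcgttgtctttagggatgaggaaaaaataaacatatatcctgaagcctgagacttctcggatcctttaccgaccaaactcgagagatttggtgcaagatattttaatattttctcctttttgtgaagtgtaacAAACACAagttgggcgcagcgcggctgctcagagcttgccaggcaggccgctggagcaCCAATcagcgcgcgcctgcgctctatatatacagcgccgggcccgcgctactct
Hist1h4d: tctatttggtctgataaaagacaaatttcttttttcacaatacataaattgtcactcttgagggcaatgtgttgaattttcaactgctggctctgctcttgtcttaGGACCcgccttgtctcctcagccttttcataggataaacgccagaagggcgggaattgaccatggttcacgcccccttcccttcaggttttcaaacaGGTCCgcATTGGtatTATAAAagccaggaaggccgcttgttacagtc
Hist3h2ba: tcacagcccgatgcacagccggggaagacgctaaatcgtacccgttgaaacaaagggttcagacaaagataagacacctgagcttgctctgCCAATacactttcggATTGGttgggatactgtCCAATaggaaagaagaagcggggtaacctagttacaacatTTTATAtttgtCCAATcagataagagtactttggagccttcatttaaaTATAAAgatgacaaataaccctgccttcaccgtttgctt

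RefSeq promoter windows of 300 bases (250 before to 50 after the start) were found for 53 members and were searched on both strands. The octamer, a binding sequence of Oct factors, lay in 7 of 14 H2A windows and 7 of 14 H2B windows, and in none of the 25 windows of the other types. It lay in 26.4% of the members' windows, and in 1.74% of all 32851 windows. Windows of head-to-head neighbours overlap, so the same match can be counted for an H2A and an H2B gene. The match counted for Hist2h2ac lay outside the stretch shown above. The CCAAT box lay in all windows of H1 (6), H2A (14), H2B (14) and H3 (8) members but in 3 of 11 H4 windows, against 37.4% of all windows. The H1 box lay in 5 of 6 H1 windows, against 7.18% of all windows. The H4 element lay in 10 of 11 H4 windows, against 45.5% of all windows, and a 5-letter motif is common by length alone. The TATA box letters lay in 62.3% of the members' windows and 13.6% of all windows. Matches of different motifs overlapped in 2 member windows only, a CCAAT box with the H4 element in each. These are letter matches in a fixed window. Windows were not used for Hist1h2bc, Hist1h3a, Hist1h3f, Hist2h2be, Hist2h4 and Hist3h2bb-ps.

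The study sequenced RNA from sorted adult colonic crypt cells and from embryonic hindgut epithelium. The 3 wild-type stem cell libraries and the 2 regenerating libraries were from the mixed C57BL/6 129/Sv strain background, and their population is given as Ascl2(mCh); Lgr5Dtr-Egfp+. Regenerating mice had received diphtheria toxin at 50 ug/kg, injected 4 times, which kills cells that carry the toxin receptor at the Lgr5 stem cell gene. The 2 knockout libraries, on the same background, had the population Ascl2Fl/Fl; Lgr5EGFP-Cre+, in which tamoxifen (2 mg on days 1 and 2, then 1 mg on day 3) deletes the stem cell transcription factor Ascl2 in Lgr5-expressing cells. Cells were sorted on mCherry or GFP, and tamoxifen is listed for the knockout libraries only. Genotype, alleles, reporter and tamoxifen thus differ together between knockout and the other adult groups and cannot be told apart. The hindgut libraries were Epcam+ cells of wild-type CD1 embryos at E11, E12, E14 and E16, 2 libraries at each age. One further library held single cells of the regenerating colon on day 8, sorted as mCherry+ and GFP-. The adult and hindgut libraries were made with different kits and scaled separately, so levels are not compared between those sets. The adult kit primes RNA at random, while the hindgut and single-cell kits prime at poly(A) tails. Member levels in the hindgut and single-cell sets may therefore leave out much of the histone RNA that ends without a tail. How much was missed was not tested.

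The libraries held 13826958 to 30583908 gene counts each, and the members took 8769 to 17954 of these in adult libraries and 3689 to 11464 in hindgut libraries. Levels are given as CPM, counts per 1000000 counts of a library, on library sizes scaled by the trimmed mean of M values. Of the members, 48 of 59 passed the filter on low counts in the adult set and 53 in the hindgut set. A gene was called when the edgeR quasi-likelihood test gave a Benjamini-Hochberg adjusted p under 0.05 over all genes tested (13911 adult, 16481 hindgut). The labels name the hindgut libraries as biological replicates. They do not say whether adult replicates came from separate mice, so p-values there measure the spread between these samples. Ascl2 read 110, 151 and 104 CPM in wild-type libraries, 85.7 and 57.0 in regenerating libraries and 53.8 and 59.2 in the libraries labelled knockout. Reads outside the deleted part cannot check the deletion.

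In wild-type stem cells the members summed to 326, 256 and 317 CPM. The sum was 325 and 317 CPM in regenerating cells and 1602 and 1645 CPM in knockout cells, so the knockout libraries stood above all other adult libraries. The log2 ratio of the mean sums was 2.44 for knockout over wild type and 0.10 for regenerating over wild type. A single gene, Hist1h2bc, took 34.0 to 56.3% of the wild-type sum and 45.9 and 48.5% of the knockout sum. Without Hist1h2bc and Hist1h1c, both of which make polyadenylated RNA, the sum was 133, 145 and 98.9 CPM in wild type, 162 and 127 in regenerating cells and 820 and 789 in knockout cells.

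In the hindgut series the sum was 379 and 372 CPM at E11, then 225 and 324 at E12, with 232 and 229 at E14 and 264 and 278 at E16. Leaving out Hist1h2bc and Hist1h1c, it was 355 and 347 CPM at E11, then 202 and 301 at E12, with 191 and 189 at E14 and 148 and 168 at E16. The E16 libraries were thus the lowest on the second measure and above E14 on the first. The 2 genes left out are also the only 2 members called higher at E16 than at E11. The lower E16 sum on the second measure therefore follows in part from that choice. Hist2h2be, which also makes polyadenylated RNA, was kept in it, at 11.7 and 17.6 CPM at E16. So was Hist3h2ba, at 48.7 and 54.7 CPM at E14 and 26.1 and 25.7 CPM at E16. The share of the sum taken by Hist1h2bc and Hist1h1c together was 6.41 and 6.82% at E11 and 43.9 and 39.4% at E16. Hist3h2ba moved the other way, from 31.8 and 21.9% at E11 to 9.89 and 9.24% at E16.

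**Figure D1:**
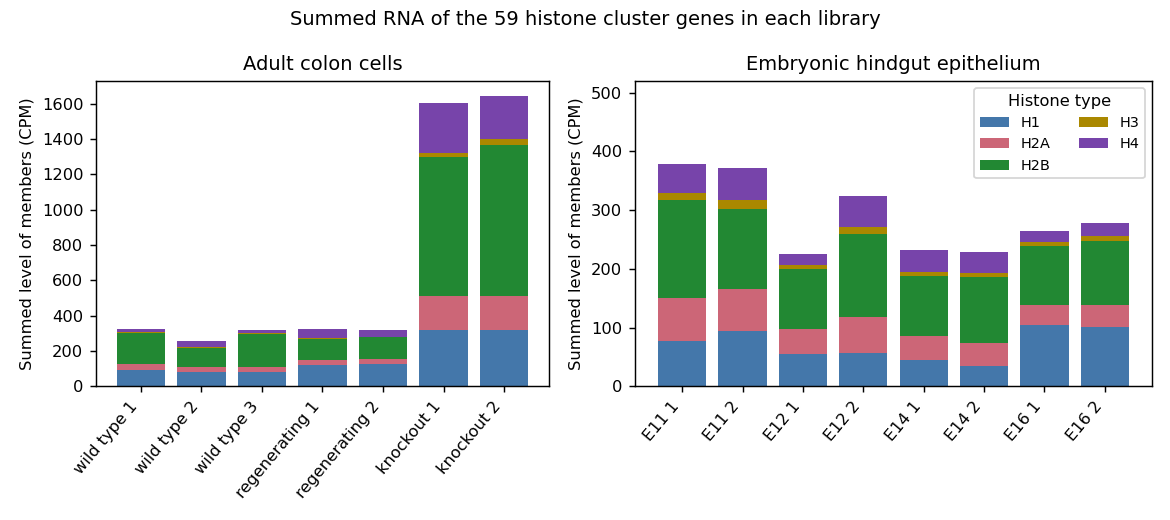
Summed level of the 59 members in each library (CPM, bars stacked by histone type), adult libraries in one panel and hindgut libraries in the other. The 2 knockout bars reach 1602 and 1645 CPM while the 5 other adult bars lie between 256 and 326, and the E11 bars are the tallest of the hindgut panel.

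Per kilobase of gene span, the members with the highest wild-type levels were Hist1h1c at 46.2 ± 11.8 CPM per kb (SD, n = 3), Hist1h4d at 40.3 ± 22.9 and Hist3h2a at 31.9 ± 6.47. Hist1h1b followed at 31.3 ± 9.66 and Hist1h1e at 26.2 ± 3.68, and no gene of these 5 differed from the next in order by more than their spread. At E11 the order began with Hist3h2ba at 219 ± 60.0 CPM per kb (SD, n = 2), Hist1h4d at 100 ± 6.32 and Hist3h2a at 60.4 ± 4.19. Hist1h1e stood next at 47.7 ± 4.18, and the first 3 of these were each above the next by more than the SD of either. This order covers the 55 members with a span under 1000 bases. Hist1h2bc, Hist2h2be, Hist1h2be and Hist1h2bp have longer RefSeq spans and were left out of it.

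The first adult comparison asked how crypt cells that rebuild the stem cell pool differ from resting stem cells. None of the 48 tested members was called in regenerating against wild-type cells, where 0.331% of all genes were called (0.302% higher, 0.0288% lower). At an unadjusted p under 0.05, 3 members passed, against 10.5% of all genes, and DESeq2 called 1 member. The median log2 fold change of the members was 0.12, and that of all genes was 0.01. The regenerating libraries lay above all wild-type libraries for 9 members and below all for 1, against 17.6% and 11.3% of all genes.

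The member nearest to a call was Hist1h1c, a somatic linker histone. It read 37.0, 23.7 and 39.7 CPM in wild-type libraries and 62.1 and 82.3 CPM in regenerating libraries, so the groups did not overlap. Its log2 fold change was 1.11 (SE 0.28, edgeR adjusted p = 0.185), and its adjusted p ran from 0.0416 (DESeq2) to 0.867 over the alternatives. The H4 gene Hist1h4c read 1.20, 0.555 and 0.471 CPM against 2.93 and 2.67 CPM, a log2 fold change of 1.91 (SE 0.72, edgeR adjusted p = 0.370). Another H4 gene, Hist1h4d, read 10.4, 26.8 and 11.5 CPM against 41.8 and 25 CPM, with overlap between the groups and a log2 fold change of 1.04 (SE 0.41, edgeR adjusted p = 0.401). Hist1h1b, a linker histone made by dividing cells, read 24.8, 32.6 and 17.2 CPM against 21.8 and 12.5 CPM. No gene of the replication list (26 genes) or of the mitosis list (19 genes) was called in this comparison, nor any of the 11 replacement histones. Markers of other crypt cells differed between these groups. The 8 goblet and deep crypt secretory markers summed to 26902 and 44699 CPM in regenerating and 2688 to 6080 CPM in wild-type cells, and 4 of 8 rose (Agr2, Reg4, Spdef and Spink4; 3 of 8 under either other scaling). The 6 stem cell markers summed to 435 and 476 CPM against 672 to 828 CPM, with 1 of 5 tested called lower (Smoc2), and the 4 tuft markers to 2.78 and 3.25 CPM against 31.6 to 50.6 CPM, with none called. Their part in the histone values was not tested.

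The second comparison asked how cells of the Ascl2 knockout, which also had tamoxifen, differ from wild-type stem cells. Of the 48 tested members, 23 rose and 1 fell in knockout against wild-type cells, which is 50% of them. Over all genes 36.2% were called, 18.8% as higher and 17.4% as lower. The fitted change was above 0 for 47 of 48 members, with a median log2 fold change of 2.70 against -0.02 over all genes and a range from -2.05 to 4.91. Both knockout libraries lay above all 3 wild-type libraries for 43 members (89.6%), and 29.5% of all genes did so. Below them lay 1 member, Hist2h2be, against 28.5% of all genes.

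Scaling bears on these sizes, because the scaling factors were 0.616 and 0.660 in the knockout libraries and 1.21 to 1.32 in wild type. With scaling by library size alone, the median of all genes moved to -1.0 and that of the members to 1.73. That scaling called 12 members, 11 higher and 1 lower, with 8.86% of all genes called higher. Without knockout replicate 2, 15 members were called.

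Among linker histones 4 of 5 tested members rose. Hist1h1b read 24.8, 32.6 and 17.2 CPM in wild type and 149 and 140 CPM in knockout, a log2 fold change of 2.54 (SE 0.33, edgeR adjusted p = 0.000457). Hist1h1e read 23.2, 20.8 and 17.4 CPM against 94.3 and 98.3 CPM, a log2 fold change of 2.23 (SE 0.23, edgeR adjusted p = 0.000153). In both genes the lowest knockout library was several times the highest wild-type library. Hist1h1d read 2.73, 1.23 and 2.17 CPM against 16.8 and 15.03 CPM (log2 fold change 2.96, SE 0.53, edgeR adjusted p = 0.00267). Hist1h1a read 1.23, 2.16 and 0.911 CPM against 9.69 and 7.88 CPM (log2 fold change 2.61, SE 0.69, edgeR adjusted p = 0.0167). The exception was Hist1h1c, at 37.0, 23.7 and 39.7 CPM against 47.7 and 58.0 CPM, a log2 fold change of 0.66 (SE 0.28, edgeR adjusted p = 0.1). The testis linker histone Hist1h1t lay between 0 and 0.251 CPM in all adult libraries and was not tested.

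Of 12 tested H2A members 7 rose. Hist1h2ae had the smallest p of all members, at 8.45, 9.85 and 6.22 CPM in wild type and 105 and 72.4 CPM in knockout (log2 fold change 3.44, SE 0.33, edgeR adjusted p = 0.000105). Hist2h2ac read 1.76, 2.34 and 1.26 CPM against 8.79 and 17.1 CPM, a log2 fold change of 2.86 (SE 0.61, edgeR adjusted p = 0.00629). The knockout replicates of Hist2h2ac differed from each other more than the wild-type range spans, yet both lay above it. Hist3h2a, the H2A gene of the Hist3 cluster, read 18.7, 12.5 and 17.5 CPM against 45.4 and 57.5 CPM (log2 fold change 1.66, SE 0.29, edgeR adjusted p = 0.00223). It was no longer called under library size scaling (edgeR adjusted p = 0.0877).

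Of 12 tested H2B members 4 rose and 1 fell. Hist1h2bc read 156, 87.1 and 179 CPM in wild type and 735 and 798 CPM in knockout, a log2 fold change of 2.45 (SE 0.29, edgeR adjusted p = 0.000305). Hist1h2bm read 0.558, 0.614 and 0.628 CPM against 6.70 and 13.1 CPM, a log2 fold change of 4.03 (SE 0.71, edgeR adjusted p = 0.00251). The member that fell was Hist2h2be, an H2B gene also known from non-dividing cells. It read 6.11, 13.1 and 4.08 CPM in wild type, 7.09 and 7.28 in regenerating cells and 1.81 and 1.92 in knockout, so knockout lay below every other adult library. Its log2 fold change was -2.05 (SE 0.67, edgeR adjusted p = 0.0410), and the call was lost in 6 of 14 alternatives, with adjusted p up to 0.137. The losses came with only the compared groups in the fit, and without wild-type replicate 2 or without any 1 of the regenerating or knockout libraries. Hist3h2ba was low in every adult library, at 1.97, 0.789 and 0.848 CPM in wild type and 3.71 and 0.733 CPM in knockout.

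Of 9 tested H3 members 2 rose. Hist1h3g read 1.41, 0.672 and 0.220 CPM in wild type and 5.53 and 5.68 CPM in knockout (log2 fold change 2.86, SE 0.98, edgeR adjusted p = 0.0471). Hist1h3a read 0.763, 0.906 and 0.628 CPM against 1.63 and 10.3 CPM (log2 fold change 2.95, SE 0.96, edgeR adjusted p = 0.0397). In Hist1h3a the knockout libraries lay far apart, the first just above the wild-type range. The H3 members were read at low levels, and 8 of the 9 had both knockout libraries above all wild-type libraries.

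Of 10 tested H4 members 6 rose. Hist1h4d read 10.4, 26.8 and 11.5 CPM in wild type and 233 and 191 CPM in knockout, a log2 fold change of 3.71 (SE 0.43, edgeR adjusted p = 0.000281). Hist1h4i read 2.44, 2.54 and 1.98 CPM against 13.4 and 12.6 CPM, a log2 fold change of 2.48 (SE 0.52, edgeR adjusted p = 0.00584). Hist4h4, the lone gene of its cluster, read 1.03, 1.02 and 0.408 CPM against 9.33 and 7.61 CPM, a log2 fold change of 3.36 (SE 0.75, edgeR adjusted p = 0.00794). For these 3 genes the groups were well apart. The counts by type depend on the scaling. With scaling by library size, 3 H1, 2 H2A, 3 H2B, no H3 and 3 H4 members rose, so both H3 calls were lost.

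Members with head-to-head starts can be set side by side. Hist1h2ae and Hist1h2bg, whose starts lie 179 bases apart, both rose, with log2 fold changes of 3.44 and 2.96. Hist2h2ac rose by 2.86 on the log2 scale while Hist2h2be, 191 bases away across the sequence shown above, fell by 2.05. The difference between those neighbours was not tested. Hist1h2ac and Hist1h2bc, 239 bases apart, had log2 fold changes of 1.96 (edgeR adjusted p = 0.186) and 2.45. Apart from Hist2h2ac and Hist2h2be, all head-to-head pairs with both genes tested had positive log2 fold changes in both genes. Of the 12 tested members with the octamer in their promoter window 6 rose, a share like that of all tested members (23 of 48). Of the 5 tested H1 members 4 rose, 3 with the H1 box in their window and 1 without it.

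**Figure D2:**
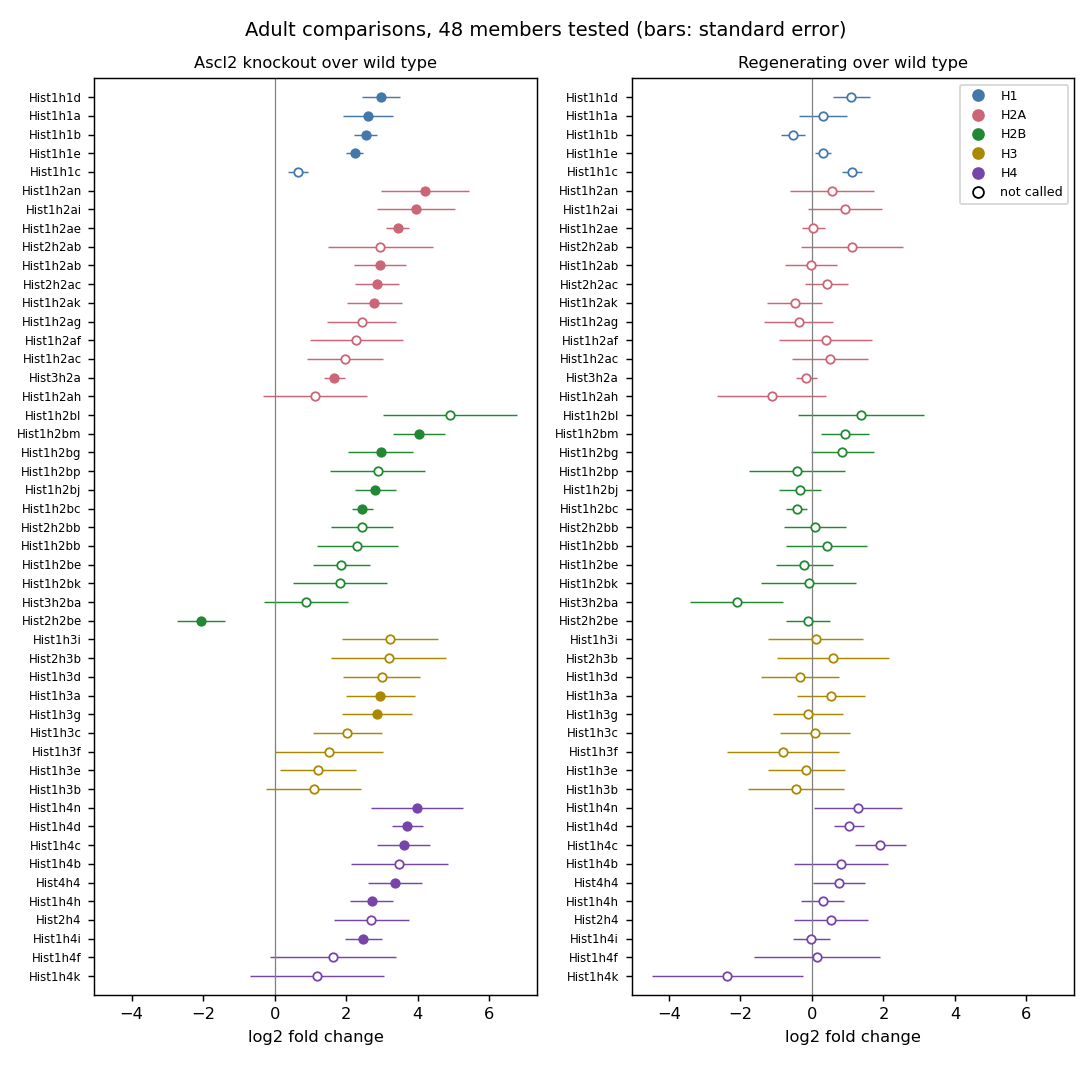
Log2 fold change of the 48 tested members in regenerating against wild-type and in knockout against wild-type cells (points coloured by histone type, bars are standard errors, filled points are called). In the knockout panel 47 of 48 points lie right of 0 and Hist2h2be alone lies left of it, while no point of the regenerating panel is filled.

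Other genes of the histone pathway and the cell cycle did not move as one group in knockout against wild-type cells. Of 11 replacement histones 6 rose and none fell, with a median log2 fold change of 1.17 (0.18 under library size scaling, with 3 higher and 3 lower). Their leading genes were H2afj with a log2 fold change of 2.70, H2afv with 2.27, H2afz with 1.86 and H3f3b with 1.39. H2afz, which marks active promoters, read 41.9, 36.6 and 32.4 CPM in wild type and 153 and 116 CPM in knockout (SE 0.24, edgeR adjusted p = 0.000461). Of 12 genes for histone RNA synthesis and processing 1 rose and 4 fell (1 and 7 under library size scaling). Lsm10, a subunit of the U7 particle that cuts histone RNA, rose by 1.99 on the log2 scale, and Cpsf3, the cutting enzyme, fell by 1.92. The scaffold Sympk fell by 2.14 and the exonuclease Eri1 fell by 0.83. Slbp read 113, 149 and 107 CPM against 77.1 and 99.7 CPM (log2 fold change -0.47, edgeR adjusted p = 0.147), and Npat had a log2 fold change of 0.83 (edgeR adjusted p = 0.398).

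Of 14 histone chaperones 2 rose and 6 fell (0 and 10 under library size scaling). Asf1a, which hands H3 and H4 to the assembly factors, rose by 1.30 on the log2 scale and the FACT subunit Supt16 by 1.31, and Nap1l4, a carrier of H2A and H2B, fell by 1.66. Ssrp1, the partner of Supt16 in FACT, fell by 1.48, and the histone-binding protein Rbbp7 fell by 1.11. Of 26 replication genes 6 rose and 12 fell (1 and 16 under library size scaling), with a median of -1.11. Pola1, a DNA polymerase subunit, rose by 2.13 and the thymidine kinase Tk1 rose by 1.31, whereas the reductase subunit Rrm1 fell by 1.96 and the helicase subunit Mcm6 fell by 1.90. Pcna, the sliding clamp, had a log2 fold change of 0.67 (edgeR adjusted p = 0.116). Of 19 mitosis genes 4 rose and 4 fell with a median of -0.10, and 1 rose and 11 fell under library size scaling. Kif20a, a mitotic kinesin, fell by 3.48, Aurkb by 1.21, Ccnb1 by 1.14 and Plk1 by 1.12, while Birc5 rose by 1.85, Ube2c by 1.59, Cdk1 by 1.02 and Mki67 by 0.94.

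Markers of other cells and measures of the libraries moved with the knockout group. In knockout libraries 51.2 and 51.4% of reads did not map to 1 place, against 39.1 to 40.2% in wild type. The 8 immune markers summed to 730 and 388 CPM in knockout and to 34.1, 1.11 and 24.7 CPM in wild type, and 4 of 8 rose (S100a8, Tyrobp, Cd52 and Csf1r). S100a8 accounted for 375 and 244 CPM of it, while Cd3e and Csf1r were under 1.20 CPM. The 7 stromal markers summed to 126 and 215 CPM against 2.10 to 4.11 CPM, and 5 of 7 rose (Lum, Col1a2, Dcn, Col3a1 and Pdgfra). The 3 endothelial markers summed to 1.54 and 1.10 CPM against 0 to 1.79 CPM. The 8 goblet and deep crypt secretory markers summed to 31162 and 40553 CPM against 2688 to 6080 CPM, the 5 enteroendocrine markers to 1726 and 2265 CPM against 73.6 to 174 CPM, and the 6 epithelial markers to 23790 and 21779 CPM against 13962 to 16146 CPM. Under library size scaling none of the 6 epithelial markers rose and 3 fell, and 1 of 8 immune markers rose. Stem and tuft cell markers were lower in knockout. The 6 stem cell markers summed to 258 and 299 CPM against 672 to 828 CPM, and 4 of 5 tested fell (Ascl2, Lgr5, Slc12a2 and Smoc2). The 4 tuft markers summed to 4.80 and 3.30 CPM against 31.6 to 50.6 CPM, and 3 of 4 fell (Avil, Pou2f3 and Trpm5). The part of these cells and library measures in the rise of the histone genes was not tested. In bulk samples, more cells of a type and more RNA per cell cannot be told apart.

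Knockout against regenerating cells uses the same knockout libraries, so it is not independent of the comparison above. There 15 of 48 members rose and none fell, which is 31.2%, against 31.4% of all genes called and 15.4% called higher. DESeq2 called 23, 22 higher and 1 lower. The median log2 fold change of the members was 2.43, and 46 of 48 were above 0. Hist1h2ae (3.40, SE 0.38, edgeR adjusted p = 0.00037), Hist1h2bc (2.88, SE 0.34, edgeR adjusted p = 0.000458) and Hist1h1b (3.08, SE 0.39, edgeR adjusted p = 0.000588) had the smallest p. The other called members with the smallest p were Hist1h1e (1.92), Hist3h2a (1.82), Hist1h4d (2.67), Hist1h2bj (3.15) and Hist1h4i (2.5) on the log2 scale. The members below 0 were Hist2h2be (-1.94, edgeR adjusted p = 0.0662) and Hist1h1c (-0.45, edgeR adjusted p = 0.318). Hist1h1c was the 1 linker histone whose regenerating libraries, at 62.1 and 82.3 CPM, lay above the knockout libraries. The count of called members fell to 6 without regenerating replicate 1, to 6 without regenerating replicate 2, to 9 without knockout replicate 2 and to 9 under library size scaling.

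In the hindgut, the epithelium changes between E11 and E16 from a simple embryonic tube to a differentiating layer. Across the whole interval 11 of 53 tested members were called, 2 higher and 9 lower at E16 than at E11. That is 20.8% of them, under the 55.7% of all genes called (29.6% higher, 26.2% lower). At an unadjusted p under 0.05, 16 passed, against 61.3% of all genes. The median log2 fold change of the members was -0.97 and that of all genes 0.05, and 42 of the 53 were below 0. Both E16 libraries lay below both E11 libraries for 32 members and above them for 7, where 36.8% and 41.4% of all genes did so. Leaving out E16 replicate 1 left 4 called members, and leaving out E16 replicate 2 left 7.

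The 2 members that rose were Hist1h1c and Hist1h2bc. Hist1h1c read 14.5 and 14.2 CPM at E11, then 14.7 and 14.2 at E12, with 18.1 and 14.7 at E14 and 70.9 and 61.9 at E16. Its level was flat over the first ages and rose at the last, by 2.21 on the log2 scale from E11 (SE 0.19, edgeR adjusted p = 7.24e-05). Hist1h2bc read 9.85 and 11.2 CPM at E11, then 8.56 and 8.33 at E12, with 22.7 and 25.5 at E14 and 45.1 and 47.5 at E16. It rose in steps from E12 on, by 2.14 from E11 to E16 (SE 0.20, edgeR adjusted p = 0.000104). Both calls held in all 15 alternatives, with adjusted p at most 0.00146.

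Hist3h2ba, an H2B gene of the Hist3 cluster, had the highest level per kilobase at E11 and fell over the series. It read 121 and 81.5 CPM at E11, then 74.4 and 97.4 at E12, with 48.7 and 54.7 at E14 and 26.1 and 25.7 at E16. Its log2 fold change from E11 to E16 was -1.96 (SE 0.22, edgeR adjusted p = 0.000219), and the call held in all 15 alternatives. Its cluster neighbour Hist3h2a read 32.2 and 29.2 CPM at E11 and 21.3 and 23.4 CPM at E16 (log2 fold change -0.46, SE 0.20, edgeR adjusted p = 0.0788). The linker histone Hist1h1e read 35.0 and 39.6 CPM at E11, then 24.6 and 22.6 at E12, with 13.5 and 11.4 at E14 and 14.9 and 17.4 at E16. It fell by 1.21 from E11 to E16 (SE 0.21, edgeR adjusted p = 0.00207), and its lowest values were those of E14.

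Of the 12 tested H2A genes, 5 fell between E11 and E16. Hist1h2ae read 16.2 and 17.5 CPM at E11, then 7.26 and 16.6 at E12, with 8.45 and 6.01 at E14 and 2.90 and 4.59 at E16, and fell by 2.17 on the log2 scale (SE 0.49, edgeR adjusted p = 0.00655). Hist1h2ag fell by 2.67 (edgeR adjusted p = 0.00749), Hist1h2af by 3.67 (edgeR adjusted p = 0.0182), Hist1h2ab by 2.76 (edgeR adjusted p = 0.02) and Hist2h2ac by 1.66 (edgeR adjusted p = 0.0421). Hist1h2af stood at 0.977 and 0.877 CPM at E11 and 0.0616 and 0.0752 CPM at E16, a total of 53 counts against 2. The ratio of E11 to E16 was 13.6 with a 95% counting interval of 3.59 to 115. Of the H4 genes, Hist1h4d read 38.5 and 42.1 CPM at E11, then 12.5 and 38.8 at E12, with 29.9 and 29.3 at E14 and 8.63 and 9.86 at E16, and fell by 2.12 (SE 0.47, edgeR adjusted p = 0.00609). Of the H3 genes, Hist1h3c read 3.42 and 3.73 CPM at E11 and 0.555 and 0.978 CPM at E16, and fell by 2.22 (SE 0.72, edgeR adjusted p = 0.0311). Without E16 replicate 1, Hist1h4d (edgeR adjusted p = 0.0508), Hist1h2ae (edgeR adjusted p = 0.0563) and Hist1h2ag (edgeR adjusted p = 0.065) were no longer called.

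Other members read in all types gave no call. Hist1h1b read 17.3 and 23.2 CPM at E11 and 9.92 and 12.5 CPM at E16 (log2 fold change -0.85, edgeR adjusted p = 0.067). Hist1h1a read 4.62 and 5.97 CPM at E11 and 2.16 and 1.96 CPM at E16 (log2 fold change -1.36, edgeR adjusted p = 0.0753). Hist1h1d read 5.82 and 10.4 CPM at E11, 2.92 and 2.24 CPM at E14 and 7.02 and 7.60 CPM at E16 (log2 fold change from E11 of -0.15, edgeR adjusted p = 0.827). Hist2h2be read 13.8 and 15.6 CPM at E11 and 11.7 and 17.6 CPM at E16, a range that spans its E11 values. Hist4h4 read 3.19 and 2.18 CPM against 1.36 and 2.11 CPM (edgeR adjusted p = 0.457). Hist1h1t lay between 0 and 0.399 CPM in all hindgut libraries and was not tested.

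**Figure D3:**
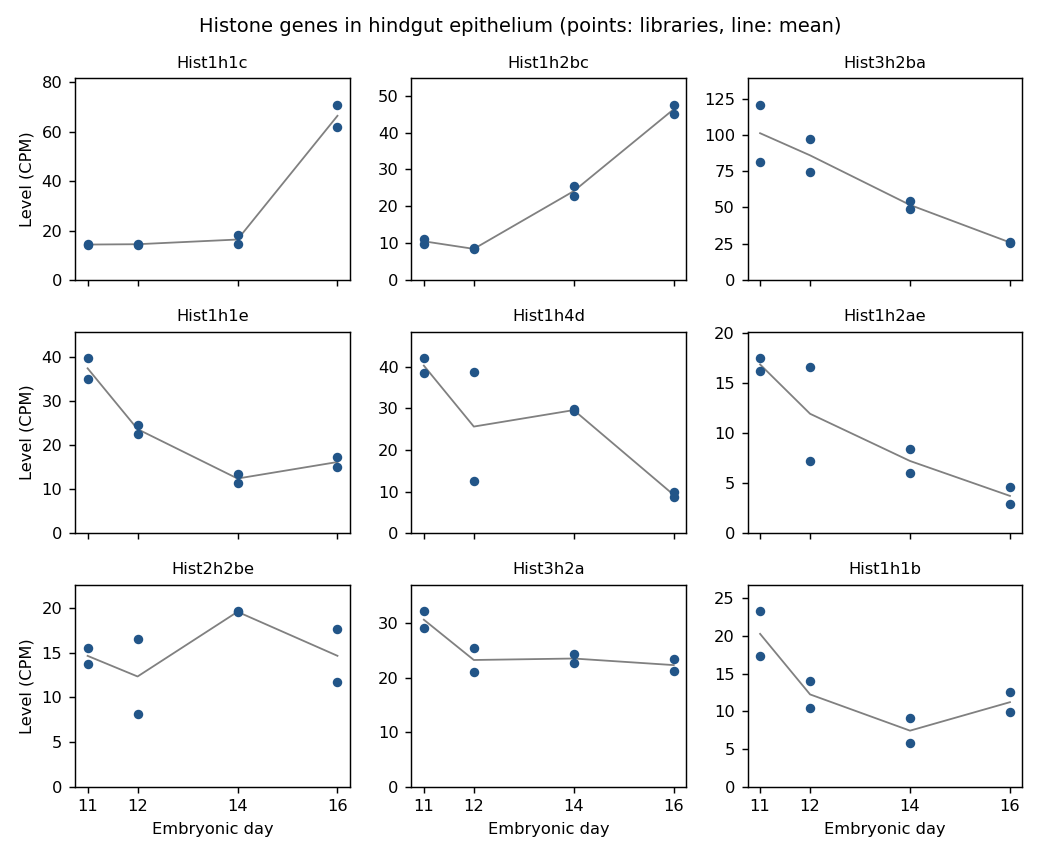
Level of single histone genes (CPM) in each hindgut library against embryonic day, each panel with its own axis from 0 (points are libraries, lines join the means of 2). Hist1h1c and Hist1h2bc are highest at E16, while Hist3h2ba falls from 121 and 81.5 CPM at E11 to 26.1 and 25.7 CPM at E16.

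By step, no member was called from E11 to E12, where 2.63% of all genes were called, 0.874% as lower. At an unadjusted p under 0.05, 2 members passed, Hist1h1a (log2 fold change -1.89, edgeR adjusted p = 0.134) and Hist1h1e (-0.66, edgeR adjusted p = 0.142), against 20% of all genes, and DESeq2 called 2. The median of the members was -0.66, and both E12 libraries lay below both E11 libraries for 25 members, against 20.9% of all genes. The E12 libraries differed from each other. Replicate 1 held 329 CPM of 5 germ cell markers and 232 CPM of red cell markers, and replicate 2 held 38.9 and 16.7 CPM. Their member sums were 225 and 324 CPM, and the part of those cells in the difference was not tested. Without E12 replicate 1 no member was called, and without E12 replicate 2, 1 was called.

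From E12 to E14, 3 of 53 members were called, against 28.3% of all genes (14.4% higher, 13.9% lower). The same 3 passed at an unadjusted p under 0.05, against 40.7% of all genes, and both E14 libraries lay below both E12 libraries for 21 members, against 35.8%. Hist1h2bc rose by 1.51 on the log2 scale (SE 0.20, edgeR adjusted p = 0.00197), Hist1h1e fell by 0.93 (edgeR adjusted p = 0.0153) and Hist3h2ba fell by 0.73 (edgeR adjusted p = 0.0352). Leaving out E14 replicate 1 or E14 replicate 2 left 1 called member each. From E14 to E16, 5 of 53 were called, against 39.6% of all genes (20.6% higher, 19% lower). Hist1h1c rose by 2.02 (SE 0.19, edgeR adjusted p = 0.00027), Hist1h2bc by 0.94 (edgeR adjusted p = 0.00764) and Hist2h2bb by 1.5 (edgeR adjusted p = 0.0346). Hist2h2bb, an H2B gene of the Hist2 cluster, read 2.22 and 2.36 CPM at E14 and 5.36 and 7.67 CPM at E16. Hist3h2ba fell by 1.00 (edgeR adjusted p = 0.00894) and Hist1h4d by 1.68 (edgeR adjusted p = 0.0235). The median of all tested members over this step was 0.38, with 33 of 53 above 0. Between 1 and 7 members were called when a library was left out, with 2 without E14 replicate 1, 1 without E14 replicate 2, 2 without E16 replicate 1 and 1 without E16 replicate 2. The step shares its E16 libraries with the E16 against E11 comparison.

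The cell cycle genes fell together over the last step, from E14 to E16. Of 26 replication genes 22 fell and none rose, with a median log2 fold change of -0.71, and all 19 mitosis genes fell with a median of -0.96 (19 and 18 genes with relative log expression scaling). From E11 to E16, 14 replication genes and 16 mitosis genes fell and none rose. Over the same interval Pcna fell by 1.05 (edgeR adjusted p = 0.000132), and Mki67 had a log2 fold change of -0.37 (edgeR adjusted p = 0.135). Gins1, a subunit of the replicative helicase, fell by 1.82, and the mitotic genes Cenpf and Ccnb1 fell by 2.04 and 1.42.

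From E11 to E16, 9 of 11 replacement histones fell and 2 rose, with a median of -1.19. H2afz read 737 and 706 CPM at E11 and 268 and 276 CPM at E16, and H2afv fell by 2.04. H1f0, the linker histone of resting and differentiated cells, rose by 1.02 (edgeR adjusted p = 0.00027), and H2afj, an H2A variant, rose by 0.74; these 2 are named because they went the other way. Of 14 histone chaperones 8 fell and none rose. The chaperones Asf1a and Nasp fell by 2.05 and 2.04, Nap1l1 by 1.87 and the histone acetyltransferase Hat1 by 1.64. Of 12 genes for histone RNA synthesis and processing 6 fell and 1, Cstf2, rose (0.58). Slbp read 257 and 263 CPM at E11 and 169 and 176 CPM at E16 (log2 fold change -0.60, edgeR adjusted p = 0.00135), and Casp8ap2, a part of the histone nuclear body, fell by 1.74. Npat had a log2 fold change of -0.04 (edgeR adjusted p = 0.871).

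Markers of other cells were high at E16. The 7 stromal markers summed to 8672 and 7453 CPM at E16, 145 and 159 CPM at E14 and 44.3 and 55.8 CPM at E11. The 8 immune markers summed to 1428 and 1579 CPM at E16, 30.3 and 35.3 CPM at E14 and 1.28 and 2.11 CPM at E11, with all 8 above 0 in both E16 libraries. Red cell markers summed to 1511 and 1614 CPM at E16, 7.88 and 10.6 at E14 and 221 and 101 at E11, with Hba-a1, Hbb-bs and Hbb-bt listed at 0 in every library. The 5 neural markers summed to 144 and 125 CPM at E16 and 14.3 and 14.1 CPM at E11, and endothelial markers to 65.8 and 63.6 CPM at E16. The epithelial markers summed to 8947 and 9059 CPM at E16 and 3895 and 3615 CPM at E11. The part of these cells in the changes at E16 was not tested. Reads that fell on more than 1 gene made up 3.09 and 3.50% at E16 and under 1% in every other hindgut library.

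The single-cell library allowed the members to be read in cells grouped by their replication and mitosis RNA. Of 6794880 barcodes, 3357 had at least 2000 UMIs, at least 1000 genes and under 20% mitochondrial UMIs. They held a median of 20847 UMIs. Each cell was thinned to 2000 UMIs and placed by the replication and mitosis lists, which hold no histone gene. Replication-high cells (624) had at least 4 replication UMIs and more of these than mitosis UMIs, and mitosis-high cells (655) had at least 4 mitosis UMIs and at least as many of these as replication UMIs. Low cells (1439) had at most 1 UMI of each list, and 639 cells lay between. These classes are ranges of a score and not cell types. In 538 cells the larger list count was 3 or 4 thinned UMIs, next to the limit of 4. Cells near the other class borders were not counted. The median thinned replication and mitosis UMIs were 6 and 1 in replication-high cells, 2 and 8 in mitosis-high cells and 0 and 0 in low cells. No doublet caller was run, and 2 cells exceeded 5 times the median depth. With 1 library there is no test, and intervals cover counting error only.

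Levels here are UMI CPM, UMIs per 1000000 UMIs of all cells in a class. Members stood at 2978 UMI CPM in mitosis-high cells (95% Poisson interval 2955 to 3002), 1689 in replication-high cells (1670 to 1709), 920 in between cells (906 to 935) and 615 in low cells (605 to 624). Free RNA, read from 71722 barcodes of 10 to 100 UMIs, held 1653 UMI CPM. The mitosis-high level was above that of free RNA and the low level below it in these and in all 4 alternative settings. The replication-high level lay near that of free RNA, and was below it with at least 5000 UMIs (1580) and with a class limit of 3 (1484). It was above that of free RNA with at least 1000 UMIs and 500 genes (2203) and with a class limit of 6 (2241). The between level was below that of free RNA here and above it with at least 1000 UMIs and 500 genes (1760). Median depths were 25320.5, 29931, 24511 and 14111 UMIs in the same order of replication-high, mitosis-high, between and low cells. In thinned cells, a member UMI was seen in 70.4% of replication-high, 93.9% of mitosis-high, 63.2% of between and 60.6% of low cells. Without thinning the shares were 98.7, 100, 98.0 and 96.0%. At least 5 member UMIs of 2000 were seen in 58.9% of mitosis-high cells, 27.1% of replication-high cells and 2.64% of low cells. Among replication-high cells, 29.6% had no member UMI after thinning, against 6.11% of mitosis-high cells.

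Of the 58 members in the matrix, 56 had a UMI in the kept cells and 43 had at least 100. Hist1h2aa and Hist1h2ba, known from germ cells, had none, and Hist1h1t had 9. The 5 most counted members, Hist1h1b, Hist1h2bc, Hist1h1e, Hist1h2ae and Hist1h1c, held 69.4% of all 123646 member UMIs. All 43 members with at least 100 UMIs were higher in mitosis-high than in low cells, by non-overlapping intervals, with a median fold of 7.71 and 18 members over 10-fold. The H2A members had the highest median fold at 13.1 (11 members), and H4 members the lowest at 2.73 (7 members). Replication-high cells were above low cells for 34 of the 43, below for 3 and had overlapping intervals for 6. Mitosis-high cells were above replication-high cells for 34 and overlapped for 9. The same counts were not made over all genes of the matrix, so they do not set the members apart from other genes.

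The members with the widest gaps between mitosis-high and low cells were Hist1h2af at 58.0-fold, Hist1h3c at 53.7-fold, Hist1h2ab at 48.7-fold and Hist1h1b at 45.2-fold. Hist1h1b stood at 847 UMI CPM in mitosis-high cells, 542 in replication-high cells, 162 in between cells and 18.7 in low cells, with 379 in free RNA. Hist1h2ae stood at 346, 194, 70.9 and 10.97 UMI CPM in the same order of classes, with 154 in free RNA. Hist1h3c stood at 138, 61.4, 22.7 and 2.58 UMI CPM, with 69.0 in free RNA. For these genes low cells were far below free RNA. Hist1h1e, at 351, 211, 117 and 77.3 UMI CPM, had a narrower span of 4.54-fold.

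Another set of members was ordered differently across the classes, with the lowest level in replication-high cells. Hist1h2bc stood at 288 UMI CPM in mitosis-high cells, 131 in replication-high cells, 219 in between cells and 260 in low cells, with 284 in free RNA. Hist1h1c stood at 159, 76.3, 79.6 and 125 UMI CPM in the same order, with 149 in free RNA. Hist3h2a stood at 29.3, 11.8, 16.7 and 18.4 UMI CPM, with 23.8 in free RNA. These 3 members were the ones with lower levels in replication-high than in low cells by non-overlapping intervals. In them, low cells held 2.00-fold, 1.64-fold and 1.56-fold as much as replication-high cells. With Hist4h4 (1.92-fold) they were also the 4 members under 2-fold between mitosis-high and low cells. Levels near that of free RNA cannot be told from it here. Hist3h2ba and Hist2h2be stayed under 4 UMI CPM in every class, and Hist3h2ba in mitosis-high cells was at 3.53 UMI CPM. Low cells held 2.26-fold as much Hist3h2ba as replication-high cells (1.67 against 0.738 UMI CPM), with overlapping intervals.

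**Figure D4:**
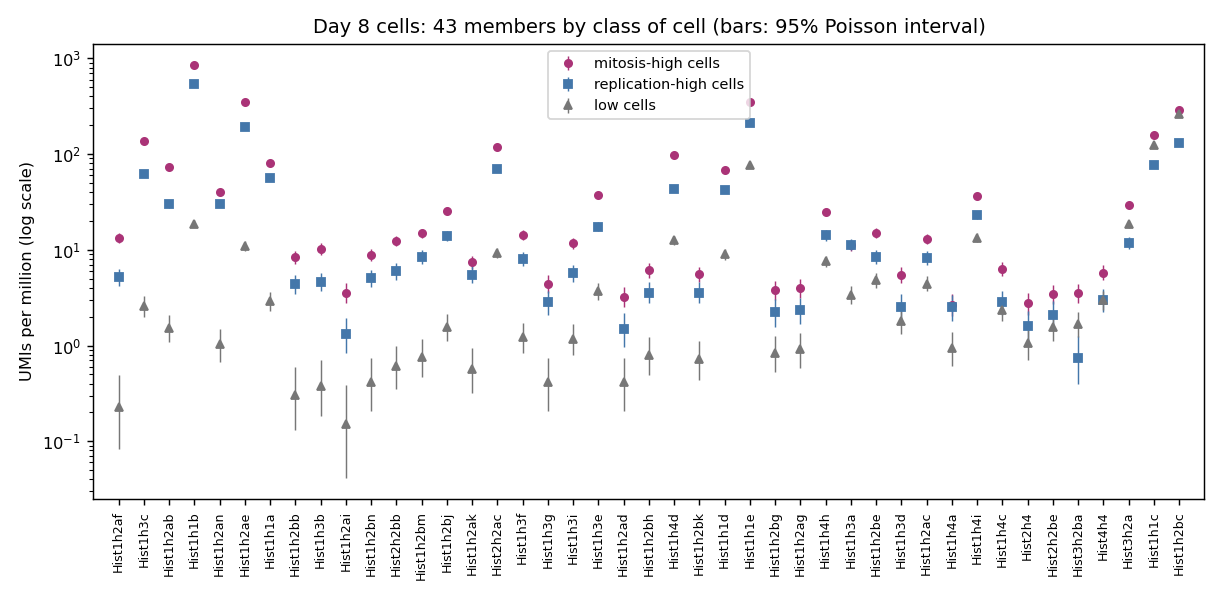
UMI CPM (log scale) of the 43 members with at least 100 UMIs in replication-high, mitosis-high and low day 8 cells, ordered by the ratio of mitosis-high to low cells (bars are 95% Poisson intervals for counting error). The gap closes from Hist1h2af at 58.0-fold to Hist1h2bc at 1.11-fold.

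Replacement histones, which the classes were not built from, took 5695 UMI CPM in replication-high cells, 7701 in mitosis-high cells, 5301 in between cells and 4232 in low cells. Their span across classes, from 4232 to 7701, was narrower than that of the histone cluster genes, from 615 to 2978. Markers of differentiated cells moved with the classes. The 8 goblet and deep crypt secretory markers stood at 29046 UMI CPM in low cells, 11107 in between cells, 5928 in mitosis-high cells and 5625 in replication-high cells. The 7 colonocyte markers stood at 2779, 617, 501 and 452 UMI CPM in the same order, and the 6 stem cell markers at 335, 365, 341 and 329 UMI CPM. The part of this difference in cell makeup in the class ratios of the histone genes was not tested. Markers of cells outside the epithelium were rare, at 3.51 UMI CPM for immune and 1.24 UMI CPM for stromal markers, against 8237 UMI CPM for epithelial markers.

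The ratio of mitosis-high to low cells on day 8 can be set beside the hindgut change of the same genes. Over the 42 members measured in both, the log2 class ratio and the log2 fold change from E11 to E16 had a Spearman rho of -0.64 and a Pearson r of -0.67. Members of a cluster share sequence and counts are low for many, so this is a description across genes that are not independent replicates. At the low end of the class ratio stood Hist1h2bc (1.11-fold) and Hist1h1c (1.28-fold), the 2 members that rose by E16. At the high end stood Hist1h2af, Hist1h3c and Hist1h2ab, which fell by 3.67, 2.22 and 2.76. Hist1h1b, next in the class ratio at 45.2-fold, read 17.3 and 23.2 CPM at E11 and 9.92 and 12.5 CPM at E16 and was not called. Hist3h2ba went against that order, with a class ratio of 2.11-fold and a fall of 1.96. Over the single steps the rho was -0.38 for E12 against E11, -0.44 for E14 against E12 and -0.17 for E16 against E14. For knockout against wild type the rho over 39 members was 0.23, and for regenerating against wild type it was -0.04.

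**Figure D5:**
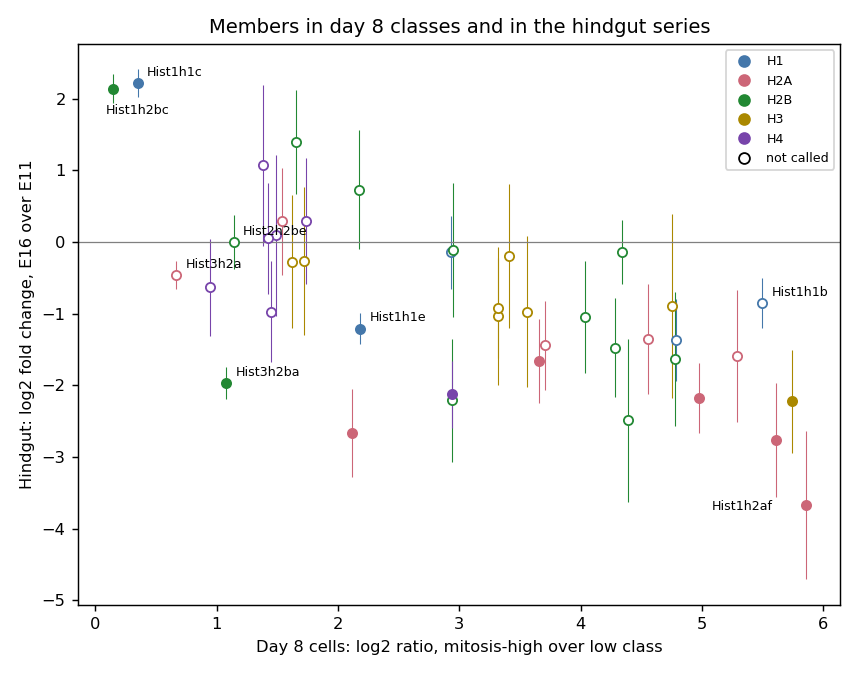
Log2 ratio of mitosis-high to low day 8 cells (horizontal) against log2 fold change from E11 to E16 in the hindgut (vertical) for 42 members, coloured by histone type, with bars for the standard error of the hindgut fit and filled points for called members. Hist1h1c and Hist1h2bc lie at the upper left with log2 fold changes of 2.21 and 2.14, and Hist1h2af at the lower right at -3.67.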

How the data were processed

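RNA was measured in 15 bulk RNA-seq libraries (3 wild-type, 2 regenerating and 2 knockout adult, and 2 each of 4 hindgut ages) and in 1 single-cell library, and 3 ChIP libraries were not analysed here. The deposited values are raw read counts per gene and raw UMI counts per gene and barcode, as the values show. Per the submitters' processing notes, the tools include STAR 2.5.3a, HTSeq and Cell Ranger 3.0.2, with builds GRCm38 and mm10. The annotation release and the strand setting are not given in the sources used here. Each column matched the title of 1 sample, and 0 columns were left unmapped. The 5 rows that name no gene were left out, and reads not mapped to 1 place made up 28.4 to 51.4%, reads on no gene 5.77 to 9.77% and reads on several genes 0.80 to 3.50% per library.

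Adult and hindgut libraries were fitted separately with edgeR 4.0.16 in R 4.3.3 (filterByExpr by group, trimmed mean of M values, quasi-likelihood F test, two-sided, group as the only term), and p-values were adjusted over all genes tested. The fit was tested on simulated data. CPM use the scaled library sizes. Replicate counts of a group differed by more than sampling noise, with chi-square per gene of 12.1 to 231. Alternatives were DESeq2 1.42.0, relative log expression and library size scaling, scaling without the members, no filter, only the compared groups, a replicate block and each library left out. Gene lists were also counted under both other scalings, an alternative chosen after seeing the data. For single cells, limits on UMIs and class limits of 3 and 6 were tried.

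Members and lists were chosen with earlier results of these data known. Genes were named by rule: in each comparison up to 8 called members per direction by smallest p, the 2 members of each type with the highest mean CPM in each set, 11 fixed members, and of each list up to 4 called genes with the smallest p plus Slbp, Npat, H2afz, Pcna and Mki67. Head-to-head neighbours, the day 8 members with the widest and narrowest gaps and list genes behind counts of 5 or fewer were added after their values were seen. Promoters are from RefSeq GRCm38.p6. All 59 members matched a RefSeq gene by symbol or synonym, and 53 had a promoter window.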

Additional observations from a re-analysis of the deposited data

How the results depend on the processing

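Counts of called members depended on scaling and on single libraries. Library size scaling called 12 members in knockout against wild type (24 in the report) and 9 in knockout against regenerating (15). DESeq2 called 1 in regenerating against wild type, 23 in knockout against regenerating and 2 in E12 against E11. With only the compared groups, 9 were called in E16 against E14. Leaving out each library gave 0 to 0 in regenerating against wild type, 15 to 26 in knockout against wild type, 6 to 18 in knockout against regenerating, 0 to 1 in E12 against E11, 1 to 3 in E14 against E12, 1 to 7 in E16 against E14 and 4 to 11 in E16 against E11. Where that leaves 1 library in a group, it is assumed to vary like the others.

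Deviations of same-numbered samples had weak correlations, 0.00964 to 0.107 in adult and -0.0295 to 0.0425 in hindgut libraries. Differently numbered samples gave -0.120 to 0.120 and -0.0425 to 0.0295. In small groups the deviations of replicates mirror each other, so the same values return with opposite sign. The check therefore cannot decide whether the numbers pair samples. With a replicate block, 14 members were called in knockout against wild type, 9 in knockout against regenerating and 7 in E16 against E11.

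The log2 ratio of summed levels was -0.0811 under library size scaling for regenerating over wild type, against 0.10 in the report. It was 1.46 for knockout over wild type, and 2.41 (relative log expression) and 1.54 (library size) for knockout over regenerating, where the report's scaling gives 2.34. For E16 over E14 it was 0.31 and 0.15 under the same 2 scalings, against 0.23, and for E16 over E11 it was -0.38 and -0.53, against -0.47.

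UMI CPM in replication-high, mitosis-high and between cells were 2203, 3163 and 1760 with at least 1000 UMIs and 500 genes, thinned to 1000 UMIs (low cells 796), and 1580, 3024 and 986 with at least 5000 UMIs. They were 1484, 2823 and 771 with a class limit of 3, and 2241, 3204 and 1205 with a limit of 6. The order of the classes was the same in all of these.

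Over 38 gene results, 550 values under alternatives held 497 on the same side of the threshold, 52 that lost the call, 1 that gained it (Hist1h1c under DESeq2 in regenerating against wild type) and 0 that changed sign. The cause of these changes was not tested. Members at under 1 CPM rest on few counts per library, which limits what their tests can show.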
